A study of Mus musculus with 8 samples.

Results

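Ribosomal protein genes, the genes for the protein parts of the cytoplasmic ribosome, were examined across 3 comparisons of mouse hair follicle cells with and without the BMP receptor gene Bmpr1a. A row was taken when its symbol was Rpl or Rps followed by a digit, or Rplp0, Rplp1, Rplp2 or Rpsa. Rps6k kinases, pseudogene symbols ending in -ps and loci that join several gene names were left out, and the row with the highest mean stood for each symbol. This gave 86 genes of 35770 gene symbols present in any of the 3 tables. They comprised 77 core ribosomal proteins and 9 paralogs or look-alikes, namely Rpl3l, Rpl7l1, Rpl10l, Rpl22l1, Rpl36al, Rpl39l, Rps27l, Rps4y2 and Rps19bp1. Rps19bp1 encodes a protein that binds Rps19 and is not itself a part of the ribosome.

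Each ribosome is built from a small subunit, which reads the messenger RNA and whose proteins carry Rps names, and a large subunit, which joins amino acids and whose proteins carry Rpl names. Ribosomal protein messages are among the most abundant of growing cells, and most begin with a run of C and T bases through which their translation follows growth signalling. In the hair follicle, bulge stem cells are mostly resting, whereas hair bulb progenitors called transit-amplifying cells (TACs) divide quickly to build the shaft. Bmpr1a, deleted in each comparison, is a receptor through which BMP ligands hold stem cells at rest and drive shaft differentiation in the bulb.

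RNA was sequenced from 8 libraries of mice of mixed strain, in 3 tables that were normalised separately. The first table held bulge hair follicle stem cells (HFSCs) at postnatal day 68, with 1 library labelled Het and 1 labelled cKO, in which floxed Bmpr1a was deleted by the K15-CrePGR transgene. The second held TACs at postnatal day 68, also 1 Het and 1 cKO, with deletion by Shh-CreER. The third held TACs of K15-CrePGR mice at postnatal day 80, with 2 wild-type libraries (WT 52 and WT 57) and 2 knockout libraries (KO 64 and KO 84). K15-CrePGR acts in bulge cells that carry keratin 15 promoter activity, so its TACs descend from cells deleted earlier, and Shh-CreER acts in Shh-expressing cells of the bulb. Bmpr1a itself stood between 31.8 and 46.0 FPKM in the 8 libraries, and a level over the whole gene does not check the loss of a floxed exon. The labels do not say whether a library came from 1 animal or from pooled animals, so that the p-values below measure only the spread between these samples.

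Levels are in FPKM, which divides a gene's fragments by its transcript length and by the mapped fragments of its library, and differences are log2(FPKM + 1) in the deleted library minus the control. A gene entered a comparison at a mean of at least 1 FPKM. All 86 genes had a row in the HFSC and Shh-CreER tables, and 83 and 84 of them passed this filter. Of the 86, 70 in the K15-CrePGR set had a row of their own and 68 passed, while 15 others were recorded only in loci joined to further genes and Rpl13 was not analysed there. The read totals are not given. From the smallest steps between low values, the cKO library held 0.854 times the depth of the Het library in HFSCs and 1.003 times in Shh-CreER TACs, and the K15-CrePGR libraries lay between 0.911 and 1.135 times the depth of WT 52. Sets of marker genes placed the tables as labelled, with a summed level of 10 bulge markers of 10580 FPKM in the HFSC Het library and of 10 matrix markers of 5517 FPKM in the Shh-CreER Het library.

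The members' share of transcripts is given by table. Their FPKM summed to 18.7% of all named genes in the HFSC Het library and 19.0% in the cKO library. The shares were 8.67% and 7.65% in Shh-CreER Het and cKO TACs. In the K15-CrePGR table the share was 4.15% in WT 52, 4.09% in WT 57, 3.06% in KO 64 and 3.58% in KO 84, counted over the 70 genes that had their own row. Over all rows of that table, which holds many loci without a gene name, the shares were 0.890%, 0.868%, 0.638% and 0.761% in the same order, whereas in the other tables the shares over all rows and over named genes were nearly equal. Deleted and control shares had a ratio of 1.02 in HFSCs, 0.882 in Shh-CreER TACs and 0.806 in K15-CrePGR TACs. The tables were made separately, and the shares are set side by side only.

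The most abundant members differed between tables. In HFSCs the leading gene was Rpl12, a protein of the large subunit stalk base, at 18979 FPKM in the Het and 18779.6 in the cKO library. Rps4x, an X-linked small subunit protein, followed at 11652 and 12538 FPKM. Next came Rplp1, an acidic stalk protein, at 5173 and 5957, and Rpl7 at 4085 and 4649 FPKM. In Shh-CreER TACs Rpl12 stood at 2058 and 2018 FPKM, and Rps4x at only 231 and 211. Among the leaders there were Rplp1 at 3654 and 2783, Rpl8 at 3654 and 2982, and Rps25 at 3835 and 3041 FPKM. In the K15-CrePGR table Rpl8, a large subunit protein, stood among the highest, at 3153 FPKM in WT 52, 3079.7 in WT 57, 1868 in KO 64 and 2631 in KO 84. Rplp1 and Rps9 were also in its top 4. Rps25, in the top 4 of Shh-CreER TACs, stood at 34.1, 31.4, 18.3 and 25.6 FPKM in the same order of libraries.

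The members' levels spanned a wide range within a library, with a median of 535 FPKM and 8 members under 10 FPKM in the HFSC Het library. Spearman's correlation of the members' mean levels was 0.629 between HFSCs and Shh-CreER TACs over 86 genes, 0.718 between HFSCs and K15-CrePGR TACs over 70, and 0.642 between the TAC tables over 70. These points share gene length and annotation, and no test is attached. Levels in HFSCs and Shh-CreER TACs were more than 10-fold apart for 25 members. Many ribosomal protein genes have processed pseudogene copies of near-identical sequence, and the assignment of reads that fit several copies was not stated, so the level of a single member is uncertain.

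**Figure D1:**
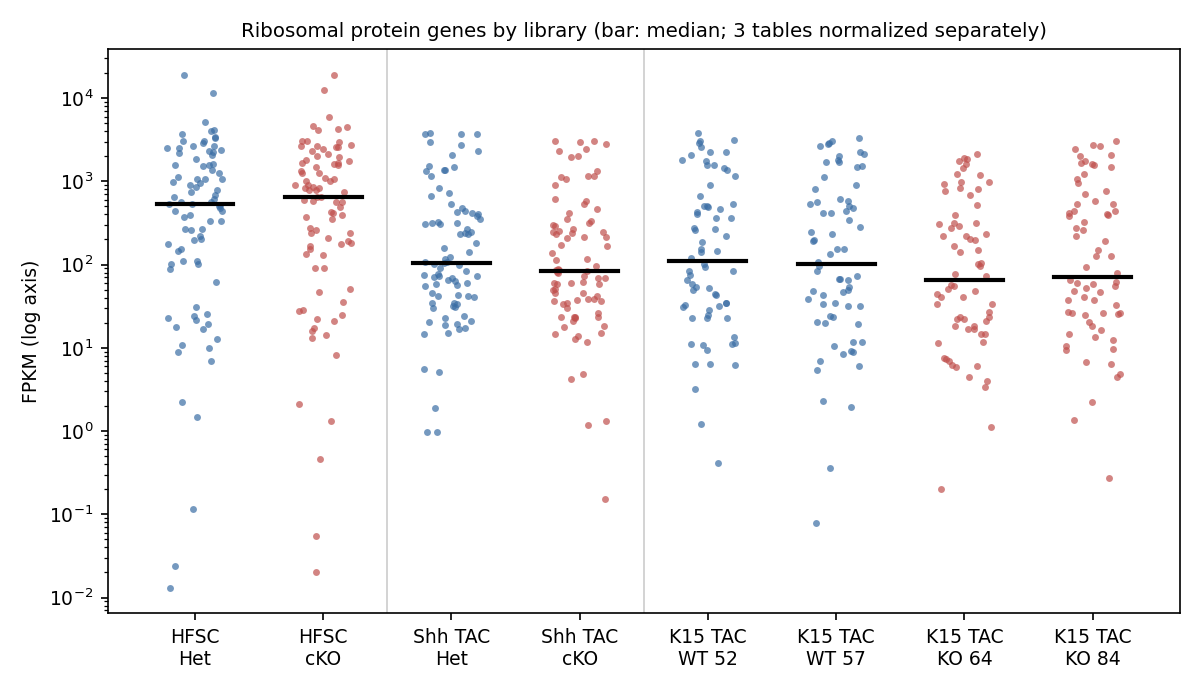
FPKM of each ribosomal protein gene (points, log axis) in each of the 8 libraries (blue for control, red for deleted), with the median of each library as a bar. Values listed at 0 are not drawn. The median gene stood at 535 and 646 FPKM in the HFSC libraries, 104 and 82.9 in Shh-CreER TACs, and between 64.7 and 111 in K15-CrePGR TACs.

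Promoters were compared because most members differed in the same direction within a TAC table. RefSeq promoter windows, from 250 bases before to 50 after the start, were matched to 65 of the 86 genes in build GRCm38.p6. Letters were searched on both strands. CCGGAAG, the core bound by ETS-family factors, was present in 38.5% of the members' promoters and in 11.9% of 17492 protein-coding promoters. AAGATGG was found in 13.8% against 6.37%, CTTTCC in 49.2% against 25.7%, GCGGCG in 35.4% against 27.7%, and TATAAA in 9.23% against 13.3%. A run of at least 6 C or T bases between 10 bases before and 15 after the start was present in 49.2% of members against 23.99% of protein-coding promoters. CTTTCC can lie inside such a run, and each match is a description of letters and not of a bound site. The windows below run from 60 bases before to 15 after the start and belong to genes on which the results turn. Capitals mark the run of C and T bases near the start and any of the searched letters.

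Rpl12, the most abundant member in HFSCs, chr2:32961652-32961726, plus strand:
Rpl12: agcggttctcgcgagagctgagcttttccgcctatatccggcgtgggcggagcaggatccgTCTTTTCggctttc

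Rps2, higher in the HFSC cKO library, chr17:24720003-24720077, plus strand:
Rps2: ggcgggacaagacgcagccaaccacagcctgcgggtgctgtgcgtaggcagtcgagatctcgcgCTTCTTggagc

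Rpl22l1, a paralog higher in the HFSC cKO library, chr3:28805448-28805522, plus strand, with TATAAA on both strands and GCGGCG:
Rpl22l1: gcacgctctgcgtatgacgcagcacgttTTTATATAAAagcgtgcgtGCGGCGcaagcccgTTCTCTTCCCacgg

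Rps12, lower in the HFSC cKO library, chr10:23787195-23787269, minus strand:
Rps12: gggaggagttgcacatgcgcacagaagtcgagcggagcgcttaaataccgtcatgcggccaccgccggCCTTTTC

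Rps3a, listed in RefSeq as Rps3a1 and widely apart between knockout libraries, chr3:86142654-86142728, minus strand, with CCGGAAG and no run of that length:
Rps3a: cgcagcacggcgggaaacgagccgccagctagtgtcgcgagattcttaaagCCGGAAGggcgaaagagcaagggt

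Rpl39l, a paralog higher in both K15-CrePGR knockouts, chr16:10170168-10170242, plus strand:
Rpl39l: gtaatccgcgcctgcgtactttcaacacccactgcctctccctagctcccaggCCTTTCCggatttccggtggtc

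In bulge stem cells the ribosomal protein genes were slightly higher in the cKO than in the Het library. Of 83 members, 59 were higher and 24 lower, where 54.2% of all 12205 genes were higher and 45.8% lower. The median difference was 0.17 on the log2 scale, a fold of 1.13, with quartiles at -0.05 and 0.35, against a median of 0.05 over all genes. The large subunit median was 0.18 over 46 genes and the small subunit median 0.15 over 31. There was 1 library per genotype, and hence no test or replicate check for this table. Under scaling to the total of named genes the median was 0.11. In these bulk samples, fewer cells of a type and less RNA per cell cannot be told apart.

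At least 2-fold higher in the HFSC cKO library were 5 members, 6.02% of the 83, beside 5.92% of all genes. Rps2, a small subunit protein near the messenger RNA entry, stood at 621 FPKM in Het and 1745 in cKO, a log2 difference of 1.49. Rpl22l1, the paralog of Rpl22, went from 535 in Het to 1246 FPKM in cKO, a difference of 1.22. Both were abundant in each library. Of lower members, Rps23 was at 16.7 and 35.3 FPKM (1.04) and Rpl17 at 22.9 and 47.1 (1.01). Both stood far below the Het median of 535 FPKM.

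Only 1 member, 1.20% of the 83 beside 4.6% of all genes, was at least 2-fold lower in HFSC cKO. It was Rps12, at 8.91 FPKM in Het and 2.09 in cKO, a log2 difference of -1.68. The next largest differences downward were in abundant small subunit genes. Rps18 stood at 2538 and 1579 FPKM (-0.68), Rps28 at 955 and 647 (-0.56) and Rps19 at 1506 and 1108 (-0.44). Rpl3, a large subunit protein at the peptidyl transferase centre, was at 334 and 272 FPKM (-0.29).

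Other cell features differed between the same HFSC libraries. All 6 markers of dividing cells were at least 2-fold higher in cKO, with a summed level of 38.3 FPKM in Het and 152 in cKO. The bulge marker sum was 10580 in Het and 4864 in cKO, of which Krt15 made up 7834 and 3075. Of the 10 bulge markers 7 were lower and 3 higher in cKO, among them Sox9 at 59.4 and 120 FPKM. The 6 sebaceous markers were lower, from 219 to 54.8 FPKM summed, and 6 of 7 immune markers were lower, from 303 to 122. Xist was at 68.9 FPKM in Het and 3.98 in cKO, and Ddx3y at 0.255 and 23.2. The libraries thus differed in sex markers, and sex cannot be told apart from genotype in this table. The part of these markers in the ribosomal protein differences was not tested.

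In Shh-CreER TACs nearly all ribosomal protein genes were lower in the cKO library. Of 84 members, 78 were lower and 6 higher, where 48.8% of all 12296 genes were lower and 51.2% higher. The median difference was -0.31, a fold of 0.807, with quartiles at -0.40 and -0.23, against 0.01 over all genes. Most members differed by a similar small amount, and few by a large one. Scaling to the total of named genes moved the median of all genes to 0.11, and the members lay -0.31 from it. Quantile normalisation gave a members' median of -0.18, which lay -0.19 from that of all genes, against -0.32 without that step. The medians were -0.32 for the large and -0.28 for the small subunit. As in HFSCs, 1 library per genotype allows no test.

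A single member, Rpl13, was at least 2-fold lower in Shh-CreER cKO, which is 1.19% of 84 beside 2.77% of all genes, and none was 2-fold higher, beside 2.67%. Rpl13, a large subunit protein, stood at 75.5 FPKM in Het and 36.7 in cKO, a log2 difference of -1.02. The next were Rpl35, which lies by the exit tunnel, at 63.7 and 42.1 FPKM (-0.59), Rps21 at 246 and 166 (-0.57), Rpl24 at 19.1 and 12.6 (-0.57) and Rpl31 at 124 and 83.3 (-0.56). The 6 genes that were higher included Rps27, Rpl39l, Rpl27, Rpl36 and Rpl28. Rps27 had the largest difference among them, from 20.4 to 36.6 FPKM (0.81). Of the others, Rpl27, Rpl36 and Rpl28 differed by 0.14, 0.07 and 0.06.

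The same libraries differed in markers. The 10 matrix TAC markers summed to 5517 FPKM in Het and 994 in cKO, with 6 of them at least 2-fold lower. Krt35 and Krt85 led the sum, at 3092 and 1533 FPKM in Het and 268 and 138 in cKO. The 3 higher in cKO were Edar (14.1 and 52.5 FPKM), Shh (111 and 199) and Mki67 (97.2 and 125). The 6 markers of dividing cells summed to 635 and 731 FPKM, with 5 of 6 higher in cKO. All 8 skeletal muscle markers were lower, from 166 to 32.9 FPKM summed, and all 6 sebaceous markers at least 2-fold higher, from 22.7 to 76.9. Xist was at 68.2 FPKM in Het and 102 in cKO, and Ddx3y at 10.0007 and 14.8. Each library of this table thus held both sex markers, and whether animals were pooled was not tested. The part of all these markers in the ribosomal protein difference was not tested.

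**Figure D2:**
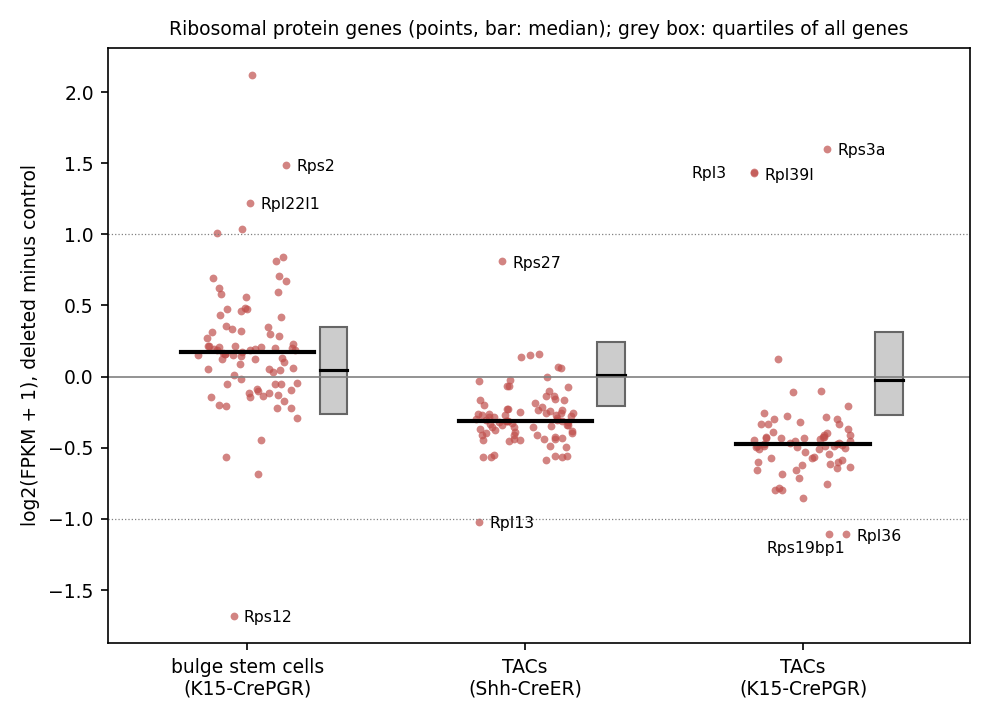
Differences in log2(FPKM + 1), deleted minus control, for the ribosomal protein genes that passed the filter in each of the 3 tables. The bar is the members' median, the grey box gives the quartiles and median of all genes, and dotted lines mark a 2-fold difference. HFSC values centre at 0.17, Shh-CreER TAC values at -0.31 and K15-CrePGR TAC values at -0.47.

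Of the K15-CrePGR libraries, KO 64 stood apart and is described first. The 6 fibroblast markers summed to 402 FPKM in WT 52, 425 in WT 57, 1472 in KO 64 and 455 in KO 84. The 4 endothelial markers summed to 2.66, 1.35, 28.3 and 2.82 FPKM, and the 5 of 7 immune markers that were found summed to 26.5, 10.001, 278 and 52.4, with Cd207 listed at 0 in WT 52, WT 57 and KO 84. Both knockouts differed from WT in follicle markers, with the 9 matrix TAC markers found at a sum of 3197, 2608, 1243 and 1001 FPKM and the 10 bulge markers at 142, 203, 614 and 672. Of the 9 matrix markers 7 were lower in the knockouts, while Shh and Edar were higher, by 1.58 and 2.34 on the log2 scale. The 5 of 6 markers of dividing cells that were found summed to 448, 558, 398 and 395 FPKM in the same order. Of these, 4 were lower and 1 higher in the knockouts. Xist was at 3.26 FPKM in WT 52 and at 175, 209.7 and 226 in the others. Ddx3y was at 26.4 FPKM in WT 52 and at 0.0812, 0.0259 and 0.753 in WT 57, KO 64 and KO 84, so the WT pair differed in sex markers. In KO 64 the members' median difference from the WT mean was -0.72, and in KO 84 it was -0.25. For WT 52 and WT 57 the medians were 0.04 and -0.04. The median over all genes was -0.06 in KO 64 and 0.01 in KO 84. The part of these markers in the members' values was not tested.

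**Figure D3:**
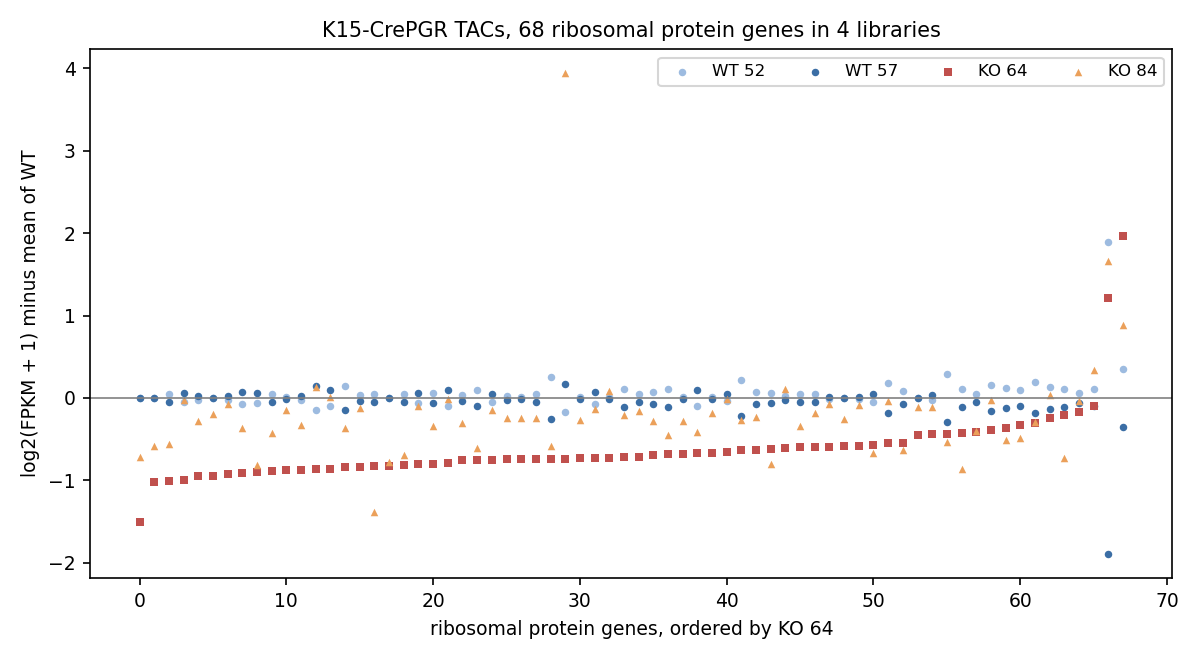
Difference of each library from the mean of both WT libraries in log2(FPKM + 1), for 68 ribosomal protein genes ordered by KO 64. WT points lie close to 0 except for Rpl3, KO 64 points lie around -0.72 and KO 84 points around -0.25, with Rps3a of KO 84 near the top.

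In K15-CrePGR TACs 64 of 68 members were lower and 4 higher in the knockouts, where 52.7% of all 13565 genes were lower and 47.3% higher. The median difference was -0.47, a fold of 0.720, with quartiles at -0.59 and -0.38, against -0.03 over all genes. The medians of the large and small subunits were -0.49 over 34 genes and -0.45 over 27. Both knockout libraries lay below both WT libraries for 53 members, 77.9% of 68, beside 27.5% of all genes, and above both for 1, Rpl39l, beside 26.8%. KO 64 was below both WT libraries for 65 members, beside 44.9% of all genes, and KO 84 for 53, beside 37.9%. Without KO 64 the median was -0.25 and 59 of 68 members were lower, and without KO 84 the median was -0.72.

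No single member passed the test. In limma's moderated test over all 13565 genes with Benjamini-Hochberg adjustment, 0 members had an adjusted p under 0.05, where 0.0369% of all genes were called higher and 0.0295% lower. The count was also 0 under each alternative setting. At an unadjusted p under 0.05, 15 members were lower and 1 higher, which is 22.1% and 1.47% of 68, beside 7.08% and 10.3% of all genes. Scaling to the named total moved the median of all genes to 0.13, with the members -0.43 from it. Quantile normalisation gave a members' median of -0.23 and put the median of all genes at -0.08, so that the members lay -0.15 from it, against -0.45 without that step.

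Rpl35 and Rps29 had the smallest adjusted p-values. Rpl35 stood at 31.1 FPKM in WT 52, 33.8 in WT 57, 16.9 in KO 64 and 18.1 in KO 84, with a log2 difference of -0.85 ± 0.14 (SE, limma adjusted p = 0.122). Rps29, a zinc-binding protein of the small subunit, was at 42.5, 42.8, 23.7 and 24.6 FPKM, a difference of -0.80 ± 0.13 (SE, limma adjusted p = 0.123). In both genes each genotype's libraries lay close together and the groups did not overlap. Rps10 was at 83.1, 83.1, 40.5 and 55.3 FPKM (-0.80 ± 0.20, SE, limma adjusted p = 0.198).

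At least 2-fold lower in the knockouts were 2 members, 2.94% of 68 beside 2.55% of all genes. Rpl36, a large subunit protein, was at 34.1 and 34.2 FPKM in the WT libraries, 11.4 in KO 64 and 20.4 in KO 84 (-1.11 ± 0.30, SE, limma adjusted p = 0.208). Rps19bp1, the Rps19-binding protein, was at 142 and 132 in WT, 76.8 in KO 64 and 51.7 in KO 84 (-1.11 ± 0.24, SE, limma adjusted p = 0.166). For both the knockouts lay below the WT libraries without overlap.

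At least 2-fold higher by the fitted difference were 3 members, 4.41% of 68 beside 10.1% of all genes, and each varied widely within a genotype. Rps3a, a small subunit protein whose locus the table places at 85941861 to 85946624 of mm9 chromosome 3, was at 6.46 and 8.43 FPKM in WT, 4.03 in KO 64 and 128 in KO 84 (1.60 ± 1.59, SE, limma adjusted p = 0.615). A single library set this value, and without KO 84 the difference was -0.74. Rpl3, at 79908210 to 79913836 of mm9 chromosome 15, was at 44.0 FPKM in WT 52, 2.27 in WT 57, 27.2 in KO 64 and 37.4 in KO 84 (1.44 ± 1.30, SE, limma adjusted p = 0.581), and without WT 57 the difference was -0.45. Rpl39l, at 10170318 to 10175004 of mm9 chromosome 16 and with levels of 1.23, 0.357, 5.80 and 2.22 FPKM, was the only member of these 3 whose groups did not overlap (1.43 ± 0.50, SE, limma adjusted p = 0.272), and it lay at low levels throughout. Among members at 5 FPKM or more, the others with the highest differences were Rps28 at 0.12, Rpl24 at -0.10 and Rpl15 at -0.11, each within overlapping groups.

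The spread within a genotype was small in the WT pair and large in the knockout pair. The median absolute log2 ratio between WT 52 and WT 57 was 0.11 over the members, beside 0.18 over all genes. Between KO 64 and KO 84 it was 0.46, beside 0.29. The knockout ratio had 1 direction for most members, since 58 of 68 were lower in KO 64 than in KO 84, 85.3% beside 55.3% of all genes. KO 64 was the lowest of the 4 libraries for 56 members, beside 34.6% of all genes.

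Members at least 2-fold apart within a genotype were few. In the WT pair there was 1, Rpl3, which is 1.47% of 68 beside 3.41% of all genes. In the knockout pair there were 3, namely Rps3a, Rpl39l and Rpl23, which is 4.41% beside 10.4%. Rpl23 was at 362 and 441 FPKM in WT, 219 in KO 64 and 439 in KO 84, so that KO 84 lay inside the WT range and KO 64 below it. KO 84 lay within the WT range for 10 members in all, beside 21.3% of all genes.

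**Figure D4:**
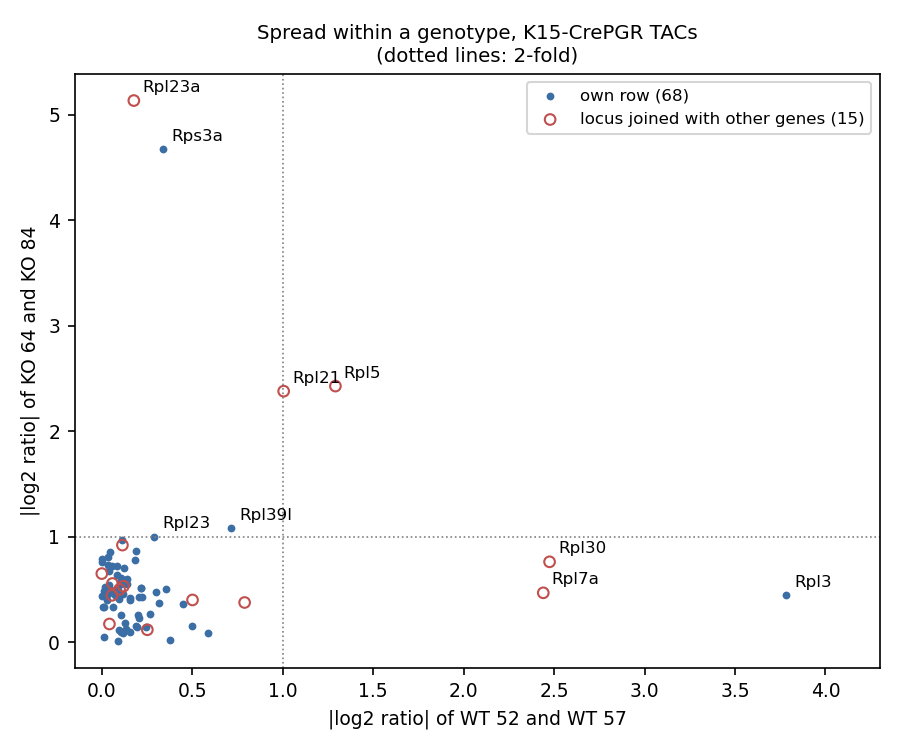
Absolute log2 ratio of the WT pair (horizontal axis) and of the knockout pair (vertical axis) for 68 ribosomal protein genes with a row of their own (filled points) and 15 joined loci (open circles) in K15-CrePGR TACs, with dotted lines at 1, a 2-fold difference. Of the filled points Rpl3 alone lies beyond the line for WT, and Rps3a, Rpl39l and Rpl23 beyond the line for the knockouts, while 5 open circles lie beyond a line.

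Members recorded only in joined loci varied more. Such loci merge a ribosomal protein gene with a small nucleolar RNA in its introns or with a neighbouring gene, and 5 of 15 (Rpl21, Rpl23a, Rpl30, Rpl5 and Rpl7a) were at least 2-fold apart within a genotype. The locus of Rpl23a, at 77990212 to 77997086 of mm9 chromosome 11, stood at 748 FPKM in WT 52, 661 in WT 57, 122 in KO 64 and 2.50 in KO 84. The locus of Rpl30 stood at 558, 99.6, 324 and 550.4 FPKM, and that of Rpl7a at 201, 1097, 124 and 172, in the same order. In the WT pair 4 loci were that far apart, beside 3.41% of all genes, and in the knockout pair 3, beside 10.4%. Both knockouts lay below both WT libraries in 9 of the 15 loci, beside 27.5% of all genes.

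Pseudogene loci held a sizeable level in the K15-CrePGR table. There were 163 loci with a -ps symbol, from 52 parent genes, and their FPKM summed to 11977 in WT 52, 11891 in WT 57, 6971 in KO 64 and 9690 in KO 84. The sums followed the members, with KO 64 lowest. For 10 of the 38 parents with a row of their own the pseudogene level exceeded the parent's. For Rpl38 the pseudogene loci held 93.6% of the summed level, for Rpsa 91.0% and for Rpl3 90.7%. The Rpl3 pseudogene loci stood at 303, 338, 183 and 257 FPKM, so that the low level of Rpl3 in WT 57 was not shared by them. Summed with these loci, the Rpl3 difference was -0.47 (limma adjusted p = 0.366) in place of 1.44. The HFSC and Shh-CreER tables held 3 such rows.

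Of the paralogs, most were higher in HFSC cKO and lower in both TAC deletions, as were 65.7% of the 67 members that passed in all 3 tables. The share over all genes was 20.3%. Rpl22 itself was at 370.2 and 349 FPKM in HFSCs (-0.08), where Rpl22l1 differed by 1.22. In Shh-CreER TACs Rpl22 differed by -0.27 and Rpl22l1 by -0.41, and in K15-CrePGR TACs by -0.61 and -0.25. Rps27l, the paralog of Rps27, was at 259 and 392 FPKM in HFSCs (0.60), 327 and 231 in Shh-CreER TACs (-0.50) and differed by -0.53 in K15-CrePGR TACs. Rpl7l1, a relative of Rpl7, differed by 0.70, -0.19 and -0.27 in the 3 tables in that order. Rpl36al, which is close in sequence to the X-linked Rpl36a, differed by 0.19, -0.31 and -0.62, and Rpl36a by 0.67, -0.42 and -0.21. Rps4y2, listed in RefSeq as Rps4l, differed by 0.31, -0.35 and -0.47.

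Other paralogs were near the floor. Rpl3l, the skeletal muscle form of Rpl3, was under the filter in every table, at 0.971 FPKM in Shh-CreER Het and 0.153 in cKO, the table in which all 8 muscle markers were lower. Rpl10l, a testis form of Rpl10, was listed at 0 in all 6 TAC libraries and stood under 0.1 FPKM in HFSCs. Rpl39l was under the filter in HFSCs, and in Shh-CreER TACs it was at 0.977 and 1.20 FPKM, against 267 and 216 for its X-linked partner Rpl39.

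The X-linked members were Rps4x, Rpl10, Rpl39 and Rpl36a. In HFSCs they differed by 0.11, 0.22, 0.46 and 0.67, and in Shh-CreER TACs by -0.13, -0.20, -0.31 and -0.42. Rpl39 and Rpl36a lay above the members' upper quartile of 0.35 in HFSCs, and Rps4x and Rpl10 lay below it. In that table Xist was lower and Ddx3y higher in the cKO library, and their relation to the X-linked members was not tested. In K15-CrePGR TACs Rps4x was at 465 and 476 FPKM in WT, 314 in KO 64 and 442 in KO 84 (-0.34). Rpl39 differed by -0.45 there and Rpl36a by -0.21, the latter with overlapping groups. Rpl10, recorded only in a joined locus, differed by 0.21, also with overlapping groups. Protein length had little relation to the difference, with Pearson's r across genes of -0.06 in HFSCs, -0.10 in Shh-CreER TACs and 0.12 in K15-CrePGR TACs, over 82, 83 and 67 genes that share their libraries.

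Set side by side, 67 members passed the filter in all 3 tables. Of these, 44 were higher in HFSC cKO and lower in both TAC deletions, 65.7% beside 20.3% of the 10007 genes that passed in all 3 tables. Another 15 were lower in all 3, 22.4% beside 12.8%, among them Rps9, Rps12, Rps18, Rps19, Rpl8 and Rpl22. The other 8 included Rpl27, Rps3a, Rpl28, Rpl36, Rps27, Rpl3 and Rps28. The tables differ in driver, age and cells, and in control genotype, which was Het in HFSCs and Shh-CreER TACs and WT in K15-CrePGR TACs. The HFSC libraries also differed in sex markers. Whether the deletions differ in effect was not tested.

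The rest of the translation machinery was taken from lists of other genes. Mitochondrial ribosomal proteins, which build the separate ribosome of mitochondria, had medians of 0.28 in HFSCs (68 of 76 higher), -0.21 in Shh-CreER TACs (69 of 76 lower) and -0.40 in K15-CrePGR TACs (70 of 70 lower). Ribosome biogenesis genes had medians of 0.17 (36 of 53 higher), -0.18 (46 of 53 lower) and -0.46 (51 of 52 lower). The initiation list was taken by Eif name, with Pabpc1, Tpt1, Naca, Btf3 and Hnrnpa1 added, and not all of its genes are initiation factors. Its medians were 0.21 (24 of 32 higher), -0.27 (28 of 32 lower) and -0.37 (28 of 28 lower). Genes of the elongation list, taken by Eef name and not all elongation factors themselves, had medians of 0.02 (4 of 7 higher), -0.25 (7 of 7 lower) and -0.44 (5 of 6 lower). The medians over all genes were 0.05, 0.01 and -0.03, and limma called none of the genes of these lists in the K15-CrePGR table.

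Named genes of these lists showed the range. Npm1, a nucleolar chaperone, was at 508 and 786 FPKM in HFSC Het and cKO (0.63) and at 260.4 and 193 in Shh-CreER TACs (-0.43). Fbl, which methylates ribosomal RNA, was at 57.4 and 30.8 FPKM in HFSCs (-0.88), against the direction of its list. Myc, a transcription factor that drives ribosome production, was at 54.3 FPKM in WT 52, 31.5 in WT 57, 23.2 in KO 64 and 12.4 in KO 84 of the K15-CrePGR table (-1.23 ± 0.41, SE, limma adjusted p = 0.259). Both knockouts were below both WT libraries for Myc, as for 27.5% of all genes. In HFSCs Myc was at 97.9 FPKM in Het and 76.2 in cKO (-0.36), against the direction of its list. In Shh-CreER TACs it was at 52.7 and 46.3 FPKM (-0.18). Tpt1, a growth-related message, was at 1368 FPKM in WT 52, 1058 in WT 57, 865 in KO 64 and 405 in KO 84 (-1.02 ± 0.43, SE, limma adjusted p = 0.321). Of the elongation list, Eef1e1 was at 19.6 and 31.2 FPKM in HFSCs (0.64) and 119 and 91.9 in Shh-CreER TACs (-0.37). Eef2k and Eef1d differed the other way in HFSCs, at 38.6 and 24.7 FPKM (-0.62) and at 224 and 164 FPKM (-0.45). Ribosomal proteins without an Rpl or Rps name were few, and Fau, which yields the small subunit protein eS30, was at 168 and 115 FPKM in Shh-CreER TACs (-0.55). In K15-CrePGR TACs Fau was at 19.4, 17.4, 9.12 and 10.1 FPKM (-0.87 ± 0.15, SE, limma adjusted p = 0.129), without overlap of the groups.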

How the data were processed

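RNA of 8 mouse libraries was sequenced, and the deposited tables hold FPKM that the authors made with TopHat and Cufflinks on build mm9, per the submitters' processing notes. Their versions were not stated. Groups and replicate numbers come from the labels. The members and gene lists were chosen with earlier results of these data known. FPKM is no count, so log2(FPKM + 1) was used, with genes at a mean of at least 1 FPKM. The K15-CrePGR table, with 2 libraries per genotype, was fitted with limma 3.58.1 in R 4.3.3 (moderated test, intensity trend, two-sided, Benjamini-Hochberg threshold 0.05 over all 13565 genes), after a test on simulated data. The HFSC and Shh-CreER tables, with 1 library per genotype, got no test, and a gene was counted where at least 2-fold apart. Within a genotype, 2-fold also marked a wide spread. No read totals were used, so no counting intervals are given. Coordinates of promoters are those of RefSeq, GRCm38.p6. Named were members called or at least 2-fold different, those widely apart within a genotype, the 4 highest and 5 largest differences each way per table, those listed at 0, paralogs with partners and X-linked members, and the 3 largest differences of each other list. Some members that this rule names are not reported here. Other pseudocounts, filters, scalings, row choices and left-out libraries were tried.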

Additional observations from a re-analysis of the deposited data

Results flagged for a closer look

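The members' median had opposite signs in the tables, at 0.17 in HFSCs, -0.31 in Shh-CreER TACs and -0.47 in K15-CrePGR TACs. Of single members at least 2-fold apart, Rps23, a small subunit protein of the decoding centre, differed by 1.04 on the log2 scale in HFSCs and by -0.38 and -0.45 in the Shh-CreER and K15-CrePGR TACs. Rpl17, which lies by the exit tunnel, differed by 1.01 in HFSCs and by -0.23 and -0.30 in the TAC tables. Each was picked out because its deleted libraries moved one way in HFSCs and the other way in both TAC tables. For Rps23 and Rpl17 both K15-CrePGR knockouts lay below both WT libraries. Rpl22l1 also changed direction, at 1.22, -0.41 and -0.25 in the same order of tables, but its K15-CrePGR groups overlapped. These directions are not particular to the flagged genes, since 44 of 67 members that passed in every table shared them. The difference between tables was not tested.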

How the results depend on the processing

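No paired analysis was possible because the K15-CrePGR groups share no replicate numbers (52 and 57 against 64 and 84) and the other tables hold 1 library per genotype. Across settings the members' median was 0.11 to 0.18 in HFSCs, -0.32 to -0.18 in Shh-CreER TACs and -0.72 to -0.23 in K15-CrePGR TACs, so that its direction did not change, and the number of members with a limma adjusted p under 0.05 was 0 in each. Levels below a few FPKM and 1 or 2 libraries per genotype limit what can be told for single members.

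In HFSCs the members' median was 0.12 under median scaling, 0.11 under scaling to the named total and 0.11 under quantile normalisation, and that of the mitochondrial ribosomal proteins 0.23, 0.22 and 0.25. Members at least 2-fold higher numbered 3 under a pseudocount of 5, median scaling and the named total, and 2-fold lower 0 under a pseudocount of 5. In Shh-CreER TACs the median was -0.20 under the named total and -0.18 under quantile normalisation, and members 2-fold lower numbered 0 under these and under a pseudocount of 5. There the named total gave -0.068 for biogenesis and -0.10 for mitochondrial genes, and quantile normalisation -0.064 for the ribosomal proteins under other names, -0.088 for initiation, -0.081 for biogenesis and -0.16 for mitochondrial genes.

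In K15-CrePGR TACs quantile normalisation gave -0.23 for the members, -0.15 for elongation and -0.19 for initiation genes. The named total gave -0.71 for other names, -0.20 for initiation, -0.29 for biogenesis and -0.24 for mitochondrial genes, and a pseudocount of 5 gave -0.68 for other names. Members 2-fold lower numbered 0 under the named total, 1 under a pseudocount of 5 or with core proteins only, and 4 with joined loci counted, and members 2-fold higher numbered 1 under a pseudocount of 5. Of all genes, limma called 21 (13 higher) with a pseudocount of 0.1, 15 (9 higher) at a mean of at least 5 FPKM, 14 (9 higher) under the named total, 14 with unnamed loci kept and 5 (2 higher) without a filter, and 3 were higher with a pseudocount of 5 and without the trend. At least 1.5-fold apart were 3 members in the WT and 18 in the knockout pair, and the share of all genes at that fold was not computed. The upper quartile of the absolute log2 ratio was 0.21 over the members and 0.33 over all genes in the WT pair. In the knockout pair it was 0.60 and 0.54. At least 2-fold apart were 2 members in the WT pair with a pseudocount of 0.1 and 1 in the knockout pair with a pseudocount of 5. Of all genes at least 2-fold apart, 79.9% were higher as reported and 68.01% under quantile normalisation.

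Leaving out each library in turn gave a members' median of -0.72 to -0.25, 59 to 66 members lower, 1 to 3 members 2-fold lower, 2 to 3 2-fold higher, 4 to 49 members with an unadjusted p under 0.05 and 53 to 65 with all knockouts below all WT. For all genes it gave 0 to 23 calls, 0 to 18 of them higher. The members with an unadjusted p under 0.05 numbered 4 without WT 52, 5 without WT 57, 13 without KO 64 and 49 without KO 84, and the calls among all genes 0, 0, 13 and 23. The members were counted at a limma unadjusted p under 0.05 and the calls at a limma adjusted p under 0.05, so these counts cannot be compared. The share of all genes at an unadjusted p is not given for these fits. In these fits the lone library of a genotype is assumed to vary like the other genotype. The list medians ranged from -0.55 to -0.37 for biogenesis, -0.63 to -0.16 for elongation, -0.48 to -0.29 for initiation, -0.55 to -0.26 for mitochondrial and -0.94 to -0.79 for other names.

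Some members changed sign in the K15-CrePGR table. Rpl15 and Rpl24 were at 0.061 and 0.062 under the named total, and Rps9 at 0.052 under quantile normalisation. Rpl3 was at -0.47 with pseudogene loci summed, an alternative chosen after seeing the data. Leaving out each library in turn, Rpl3 ranged from -0.45 without WT 57 to 3.33 without WT 52. Without KO 84 and without KO 64, Rpl22l1 was at -0.61 and 0.11, Rpl23 at -0.87 and 0.13, Rpl24 at -0.24 and 0.034, Rpl31 at -0.72 and 0.081, Rps18 at -0.86 and 0.0081, Rps28 at -0.094 and 0.34, and Rps3a at -0.74 and 3.94. Rpl24 was also at 0.03 without WT 52. The cause was not tested.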
